A study of Mus musculus with 33 samples.

Results

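The iron recycling genes of macrophages, Slc40a1, Hmox1, Cd163, Fth1, Ftl1, Tfrc, Slc11a1, Spic and Blvrb, were described in single-cell RNA-seq of mouse bone, brain, liver and lung. They were taken as a named list of 9 of the 32285 genes in the deposited matrices, and all 9 were found there by Ensembl identifier and symbol. Macrophages of the liver, the bone marrow and the spleen clear aged red cells, and a major part of the iron that the body uses each day comes from the haemoglobin they break down. CD163 takes up haemoglobin bound to haptoglobin, haem oxygenase 1 (Hmox1) opens the haem ring and frees its iron, and biliverdin reductase B (Blvrb) reduces biliverdin. NRAMP1 (Slc11a1) moves iron out of the phagolysosome, ferritin (Fth1 and Ftl1) stores it, ferroportin (Slc40a1) is the iron exporter, the transferrin receptor (Tfrc) is the main route of iron uptake in most cells, and Spi-C (Spic) is a haem-induced transcription factor of red pulp and bone marrow macrophages.

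Of the 9 mRNAs, 4 carried a match to the iron responsive element, a hairpin that iron regulatory proteins bind. Bound in the 5′ UTR the proteins block translation, and bound in the 3′ UTR they protect the mRNA from decay. The search asked for a C, 5 stem bases, the loop CAGTGN and 5 bases that pair with the stem, G-T pairs included, on the transcribed strand of GENCODE gene models (build GRCm38). The sites are shown because iron can act on these members after transcription, and mRNA counts do not measure the block of translation. Capitals mark the 6-base loop.
Fth1, 5′ UTR, chr19:9982733-9982759, plus strand: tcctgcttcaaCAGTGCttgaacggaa
Ftl1, 5′ UTR, chr7:45459780-45459806, minus strand: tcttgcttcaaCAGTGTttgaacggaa
Slc40a1, 5′ UTR, chr1:45925466-45925492, minus strand: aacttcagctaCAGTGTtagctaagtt
Tfrc, 3′ UTR, chr16:32631220-32631246, plus strand: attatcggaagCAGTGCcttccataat
Tfrc, 3′ UTR, chr16:32631599-32631625, plus strand: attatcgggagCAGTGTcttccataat
Tfrc, 3′ UTR, chr16:32631664-32631690, plus strand: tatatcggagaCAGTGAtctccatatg
Tfrc, 3′ UTR, chr16:32631711-32631737, plus strand: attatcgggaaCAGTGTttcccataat
Fth1, Ftl1 and Slc40a1 had 1 site each and Tfrc had 4. Of all genes with an annotated 5′ UTR, 31 of 20580 (0.151%) held a match, and of those with a 3′ UTR 129 of 20978 (0.615%) did. The letters were not found in the UTRs of the other 5 members. These lie at chr8:75093621-75100589 (Hmox1), chr6:124304656-124330527 (Cd163), chr7:27447978-27466144 (Blvrb), chr1:74375195-74386062 (Slc11a1) and chr10:88674772-88685015 (Spic), all protein-coding genes.

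The cells came from SAMENT, a labelling method that puts biotin on cells lying near injected tumour cells. Lungs, livers, brains, femurs and tibias were taken after overnight labelling, dissociated with collagenase, treated to lyse red cells where these were present, and separated by sorting for biotin. After intracardiac injection each of the 4 tissues gave 4 positive and 4 negative samples. A pooled bone matrix from an injection that the labels call only IIA gave 6 positive and 6 negative hashtagged samples. The labels name no strain, genotype, age or injected cell line, so every group is described by tissue, sort and injection alone, and no uninjected animal is among the groups. The biotin negative cells come from injected animals as well.

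Kept cells numbered 55366 in the 32 intracardiac samples (94 to 3505 per sample, 482617 to 44834665 UMIs) and 22362 in the 12 IIA samples (249 to 3480 per sample). Levels are CPM, the UMIs of a gene per 1000000 of the UMIs summed over the cells of a class in a sample, given for classes of at least 10 cells. Counts from the end of a transcript are not compared between genes. Macrophages are here the macrophage-like, microglia-like and alveolar macrophage-like clusters, 6709 intracardiac cells, named from marker genes with the 9 members left out of the genes used for clustering. In the positive sort their replicates held 95 and 329 macrophages in bone (replicates 1 and 2 only), 91, 835 and 73 in liver (replicates 1 to 3), 195, 535, 88 and 371 in brain and 1396, 1946, 458 and 101 in lung (replicates 1 to 4). The bone cells were the shallowest, with a median of 977 and 1898 UMIs per cell in the 2 samples, against 2405 to 6275 in liver, 3241 to 5178 in brain and 6304 to 9282 in lung.

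Replicate 2 stood apart from the other replicates. It held the most macrophages in all 4 tissues, and Clec4f, a marker of liver macrophages, was counted at 17.8 to 42.3 CPM in its monocytes outside the positive liver sample, which had 116 CPM. In monocytes outside the liver it reached at most 0.996 CPM in replicates 1 and 4, while replicate 3 had 1.81 to 22.1 CPM outside positive liver. Samples of the same replicate number shared no cell barcode, whereas samples of different numbers shared up to 7 per pair. The labels name no batch, so the replicate number itself is used as a block in an alternative fit, and results that rest on replicate 2 are given also without it.

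Most members were highest in the macrophage-like clusters among the named cell classes of the intracardiac samples. Slc40a1 had a median of 1228 CPM there over 14 samples (lowest 49.2, highest 3339), against 189.7 CPM in endothelial cells (12 samples) and 129.8 CPM in neutrophils (32 samples). The median of Cd163 was 1370.3 CPM (43.9 to 2253), and the next named class, plasmacytoid dendritic cells, had 11.9 CPM. The median of Hmox1 was 927 CPM (125 to 9335), against 103 CPM in alveolar macrophages. The lowest macrophage-like samples therefore overlapped other classes for Slc40a1, Hmox1 and Cd163 (up to 240 CPM of Cd163 in positive monocytes), while the median of each was the highest of the named classes.

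Spic had a median of 72.2 CPM (0 to 975) in macrophage-like clusters, 1.08 CPM in conventional dendritic cells and 0.546 CPM in monocytes. Slc11a1 had 235 CPM (36.1 to 379) in macrophage-like clusters, 125 CPM in microglia, 85.5 CPM in neutrophils and 74.5 CPM in monocytes. Blvrb had 340.5 CPM (255 to 628), against 124 CPM in endothelial cells. The other 3 members had their highest level in another class. Fth1 and Ftl1 were highest in alveolar macrophages, at 15344 and 6474 CPM (6 samples), with 11967 CPM of Fth1 in neutrophils and 6312 CPM of Ftl1 in macrophage-like clusters. Tfrc was highest in plasmacytoid dendritic cells, at 207 CPM (36.9 to 374 over 13 samples), and stood at 28.5 CPM (5.58 to 65.6) in macrophage-like clusters. The files also list 7 copies of the ferritin genes (the Fthl17 family and Ftl1-ps1). Reads that fit several copies could make the ferritin levels uncertain, and their number was not measured here.

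**Figure D1:**
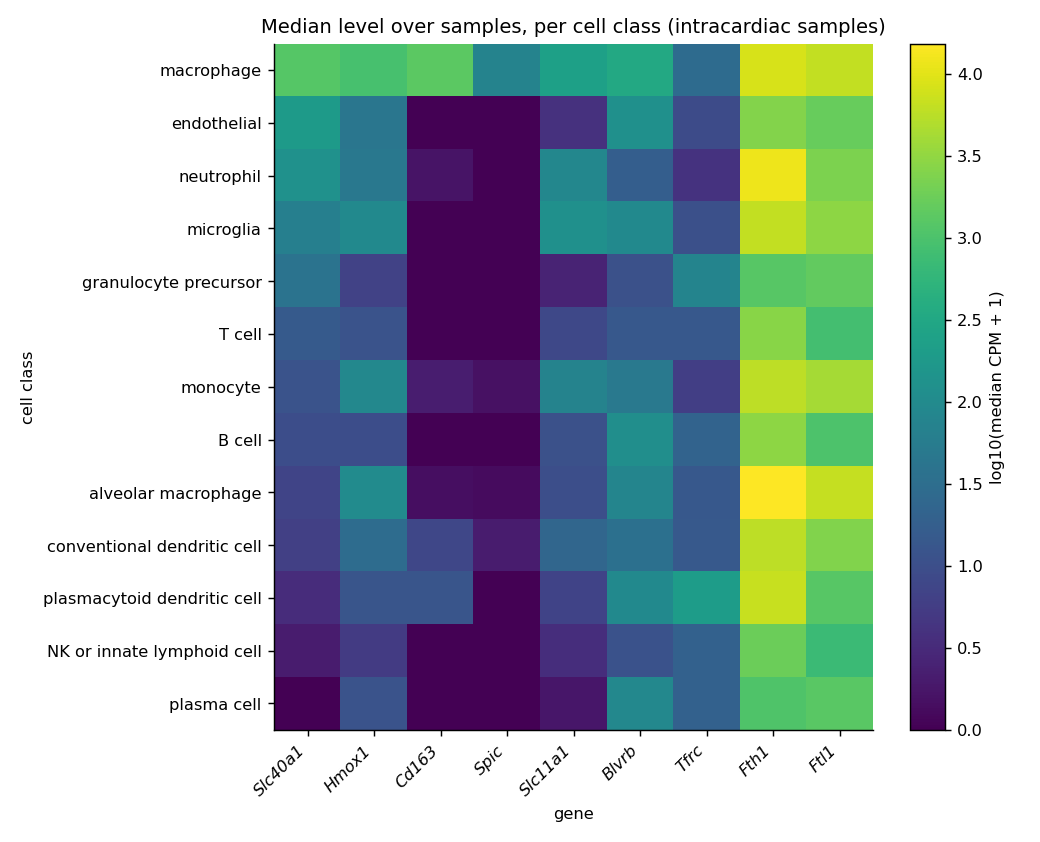
Median CPM over the samples of each named cell class in the intracardiac samples, as log10(median CPM + 1), with 1 row per class and 1 column per gene. Colours are read down a column: Slc40a1, Hmox1, Cd163, Spic, Slc11a1 and Blvrb are highest in the macrophage row, Fth1 and Ftl1 in the alveolar macrophage row, and Tfrc in the plasmacytoid dendritic cell row.

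Bone and liver macrophages were then compared with brain and lung macrophages in the biotin positive sort, where macrophages were frequent enough. Ferroportin, haem oxygenase 1, CD163, NRAMP1, Spi-C, the transferrin receptor and biliverdin reductase B passed the test as higher in bone and liver, 7 of the 9 members, and ferritin did not. Of these calls that of Blvrb was lost with a block for replicate number, and those of Blvrb and Tfrc without replicate 2 of every group. Cd163, Slc11a1 and Blvrb did not pass against brain alone, in bone or in liver. The largest differences were those of Spic, Slc40a1, Hmox1 and Cd163, each above 4 on the log2 scale. In this fit 16.8% of the 9846 genes tested passed an edgeR adjusted p under 0.05 (10.1% higher and 6.69% lower in bone and liver). The median difference of the 9 members was 2.88 on the log2 scale, beside -0.015 over all genes tested.

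Slc40a1 stood at 3172 and 1934 CPM in bone, at 1914, 2177 and 2512 CPM in liver, at 403, 171, 63.6 and 81.5 CPM in brain and at 4.45, 18.4, 6.71 and 2.24 CPM in lung. All 5 bone and liver samples were above all 8 brain and lung samples, and brain was above lung in every sample. The difference was 5.78 (log2, SE 0.48, edgeR adjusted p = 2.44e-06). Liver minus bone was -0.070 (SE 0.68) and did not pass the edgeR test, while brain was 4.27 above lung (SE 0.62, edgeR adjusted p = 0.000103). The level in lung replicate 2, the highest of the lung samples, was no higher than the 20.1 CPM in monocytes of that sample. Those monocytes were few, with 1946 macrophages among the 1965 phagocytes of the sample, so the 20.1 CPM is uncertain.

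Hmox1, the haem oxygenase, was higher in bone and liver as well. It stood at 4508 and 8791 CPM in bone, at 1194, 4780.4 and 451 CPM in liver, at 179, 677, 110.1 and 89.8 CPM in brain and at 93.5, 241, 93.9 and 105 CPM in lung. Replicate 2 gave the highest sample of each tissue, and its brain sample was above the lowest liver sample. The difference was 4.18 (SE 0.62, edgeR adjusted p = 0.000448), and within each of the 3 replicate numbers that held both kinds of tissue the bone and liver samples were above the brain and lung samples. The same held in 3 of 3 for Slc40a1, Slc11a1 and Spic, in 2 of 3 for Tfrc, and in 1 of 3 for Cd163 and for Blvrb. Hmox1 was called in each of the 23 alternatives, the one without replicate 2 of every group included. Blvrb stood at 594 and 261 CPM in bone, at 332, 289 and 312 CPM in liver, at 498, 337, 88.1 and 158 CPM in brain and at 82.7, 79.1, 79.2 and 101 CPM in lung. Brain replicates 1 and 2 reached the level of bone and liver. The difference of 1.12 (SE 0.33, edgeR adjusted p = 0.0321) was lost with a block for replicate number (edgeR adjusted p = 0.0641), with finer clusters (Leiden resolution 2.0 in place of 1), and without replicate 2 of every group. It was also lost without any 1 of bone replicates 1 and 2, brain replicate 4, liver replicates 2 and 3 and lung replicates 1 to 3.

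The uptake receptors separated the tissues differently. Cd163 stood at 957 and 2115 CPM in bone, at 718, 1606 and 375 CPM in liver, at 1413, 1674, 176 and 197 CPM in brain and at 1.46, 12.3, 0.335 and 0 CPM in lung, where the count of 0 in replicate 4 allows up to 3.36 CPM. Brain overlapped bone and liver, and the lung samples were apart from all others. The combined difference was 4.10 (SE 0.73, edgeR adjusted p = 0.0019). Liver exceeded lung by 7.55 (SE 1.17, edgeR adjusted p = 0.000466), whereas liver minus brain was 0.025 (SE 0.92, edgeR adjusted p = 0.994) and bone minus brain 0.66 (SE 1.02, edgeR adjusted p = 0.737). Tfrc stood at 52.6 and 43.1 CPM in bone, at 30.6, 16.2 and 21.1 CPM in liver, at 4.60, 17.9, 14.7 and 12.4 CPM in brain and at 10.3, 15.9, 14.4 and 12.3 CPM in lung. Both bone samples were above every other sample, and the liver samples overlapped brain. Its difference of 1.10 (SE 0.28, edgeR adjusted p = 0.0157) was not called with finer clusters, without bone replicate 2 or without replicate 2 of every group (edgeR and DESeq2 adjusted p over the alternatives 0.00568 to 0.11). Liver minus brain did not pass for Tfrc, at 0.62 (SE 0.39, edgeR adjusted p = 0.298).

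Slc11a1 stood at 174 and 358 CPM in bone, at 198, 313 and 308 CPM in liver, at 90.4, 169, 125 and 139.9 CPM in brain and at 6.72, 12.6, 11.4 and 0 CPM in lung. Bone and liver were above brain in every sample by a small margin and lung was far below. The difference was 2.88 (SE 0.34, edgeR adjusted p = 6.60e-05). Against lung alone bone was higher by 4.76 and liver by 4.88 (edgeR adjusted p = 3.41e-05 and 1.43e-05), and neither passed the test against brain (edgeR adjusted p = 0.275 and 0.136).

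Spic was the 1 member that passed the test between liver and bone. It stood at 531 and 917 CPM in bone, at 120.1, 122 and 88.5 CPM in liver, at 19.9, 13.6, 4.89 and 5.16 CPM in brain and at 0.324, 2.64, 0.335 and 0 CPM in lung. In these values the 4 tissues fell in that order with no overlap between them. The 4.89 CPM of brain replicate 3 lies below the 7.34 CPM that 3 counts would be, and the 0 of lung replicate 4 allows up to 3.36 CPM. Brain and lung are therefore not shown to be apart in every sample. Bone and liver together exceeded brain and lung by 6.12 (SE 0.44, edgeR adjusted p = 9.93e-07), and liver minus bone was -2.57 (SE 0.58, edgeR adjusted p = 0.0401), in a contrast where 1.68% of genes were called, 0.630% higher and 1.05% lower in liver. The same macrophages differed in their markers. Clec4f had 5.26 and 115 CPM in bone and 1438, 3040.4 and 4379 CPM in liver, and Vcam1, a marker of marrow macrophages of erythroid islands, had 8442 and 14693 CPM in bone and 1803, 1661 and 674 CPM in liver.

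The ferritin genes of iron storage had another order. Fth1 stood at 11893 and 10293 CPM in bone, at 8642, 8182 and 5897 CPM in liver, at 7930.1, 7819.9, 8007 and 6542 CPM in brain and at 16256, 20834, 15118 and 15586 CPM in lung. The lung samples were above all others. Against lung, Fth1 was lower in liver (-1.24, SE 0.23, edgeR adjusted p = 0.00159), in bone (-0.83, SE 0.26, edgeR adjusted p = 0.0387) and in brain (-1.22, SE 0.21, edgeR adjusted p = 0.000369). Bone and liver against brain and lung together gave -0.43 (SE 0.17, edgeR adjusted p = 0.101), which DESeq2 called. Ftl1 stood at 11451 and 7122 CPM in bone, at 5287, 6338 and 5159 CPM in liver, at 4778, 6164, 3110.4 and 4074 CPM in brain and at 7053, 6502, 6451 and 7099.7 CPM in lung. Both bone samples were above every other sample, 7122 CPM by a small margin, and the lung samples were above all liver and brain samples. Liver and brain overlapped. No pair passed the test for Ftl1, with edgeR adjusted p between 0.0547 (brain minus lung) and 0.676 (bone minus lung).

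**Figure D2:**
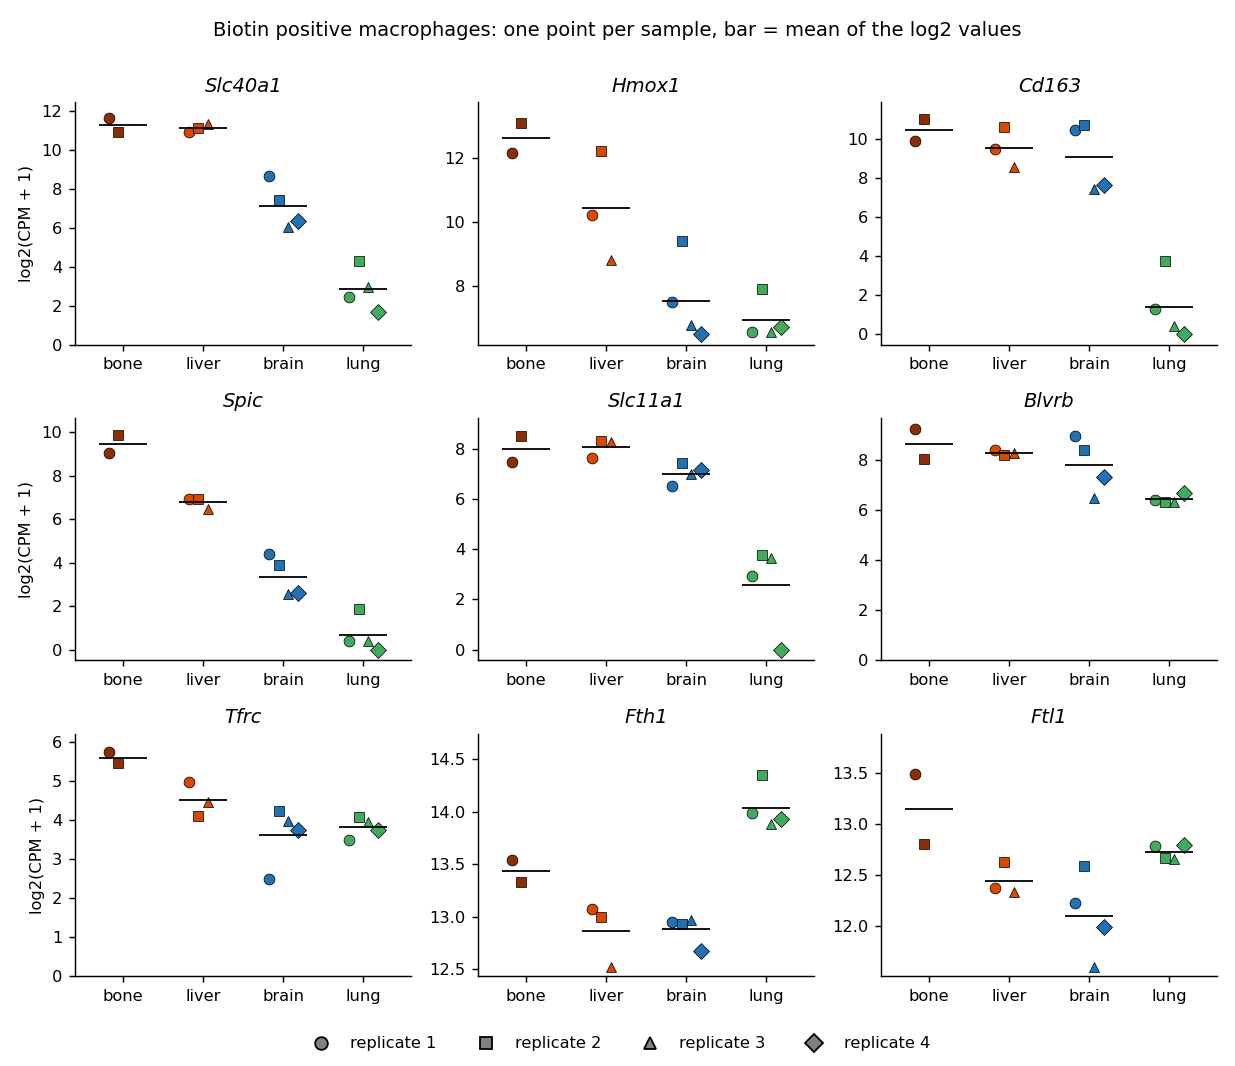
Levels of the 9 genes in biotin positive macrophages by tissue, as log2(CPM + 1), with 1 point per sample (shape by replicate number) and a bar at the mean of the log2 values. Slc40a1 and Spic fall from bone and liver through brain to lung, Cd163 is lower in the 4 lung samples (0 to 12.3 CPM) than in all others, and Fth1 is highest in lung. The vertical axes of Hmox1, Fth1 and Ftl1 do not start at 0.

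Against lung, 8 of the 9 members were called in bone, 7 higher and 1 lower (beside 18.7% of all genes, 10.0% higher and 8.73% lower). In liver 7 were called against lung, 6 higher and 1 lower (beside 22.2% of all genes, 12% higher and 10.2% lower). Against brain, 4 were higher in bone (beside 12.6% of all genes, 7.25% higher and 5.35% lower) and 3 in liver (beside 18.8% of all genes, 10.3% higher and 8.48% lower), namely Slc40a1, Hmox1 and Spic in both and Tfrc in bone. Brain exceeded lung for 5 members, Slc40a1, Cd163, Slc11a1, Spic and Blvrb, and was lower for Fth1 (beside 40.7% of all genes, 20.7% higher and 20.0% lower). Leaving out single samples gave 5 to 7 members in the combined comparison, and leaving out replicate 2 of every group gave 5, with 360 genes called in place of 1650. Slc40a1, Hmox1, Cd163, Slc11a1 and Spic were called in each of the 23 alternatives. The erythroid marker list, a sign of red cell RNA, summed to 391 and 531 CPM in bone, 28.3 to 853 CPM in liver, 9.79 to 37.1 CPM in brain and 20.2 to 65.9 CPM in lung macrophages, with Car1 and Rhd at 0 in bone. Its part in these differences was not tested.

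Shares of macrophages with a UMI, with each cell thinned to 1500 UMIs, were compared next, since depth differed between tissues. A Slc40a1 UMI was found in 83.8% and 82.3% of bone macrophages, in 73.2% to 86.5% in liver, in 9.57% to 41.5% in brain and in 0% to 1.98% in lung, where the 0 of 98 cells in replicate 4 allows up to 3.69% (exact Clopper-Pearson limit). Beside these stand 15.2% to 38.1% of positive neutrophils and 0% to 16.7% of positive T cells over the 4 tissues. The lung macrophages were thus below the neutrophils of the same tissue (19.2% to 32.6%), while the unthinned macrophage shares reached 13.2% in lung and 80.2% in bone. A Hmox1 UMI was found in 91.9% and 92.8% of bone and 42.3% to 83.7% of liver macrophages, in 12.2% to 44.4% in brain and in 12.2% to 24.2% in lung, beside 0% to 9.09% of T cells. A Spic UMI was found in 59.5% and 66.3% of bone and 11.5% to 18.3% of liver macrophages, and in at most 4.40% in brain and 0.313% in lung. Thinning used 218 bone macrophages and left out 206, and in liver, brain and lung it used 886, 1053 and 3845 and left out 113, 136 and 56.

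The brain macrophages lay mostly in 2 clusters, which stood far apart in Cd163. Cluster 29, led by Ptgds, Ccl12, Ccn1, Cbr2 and Lyve1, held 64.5% of the positive brain macrophages, and cluster 31, led by microglia genes such as Gpr34, Tmem119 and P2ry12, held 35.0%. Cd163 stood at 1715, 1809, 1496 and 1501 CPM in cluster 29, and at 0, 37.3, 0 and 0 CPM in cluster 31. Replicates 1 and 2 held mostly cluster 29 (177 of 195 and 504 of 535 macrophages) and replicates 3 and 4 mostly cluster 31 (70 of 88 and 303 of 371), and the first pair was also the higher in Cd163. Since clusters were made from these cells, the contrast between them is given without a test.

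The levels of Slc40a1 were closer. It stood at 471, 181, 62.3 and 126 CPM in cluster 29 and at 87.0, 59.6, 63.8 and 74.8 CPM in microglia, with replicate 3 at about the same level in both. Spic stood at 24.2, 13.8, 41.5 and 39.4 CPM in cluster 29 and was counted in microglia of replicate 2 alone, at 14.9 CPM. The 41.5 and 14.9 CPM rest on 2 UMIs each, and the counts of 0 in microglia allow up to 26.1, 8.32 and 1.78 CPM in replicates 1, 3 and 4, so a difference was not detectable in replicates 1 to 3. Hmox1 stood at 206, 714, 125 and 217 CPM in cluster 29 and at 52.2, 239, 108 and 70.7 CPM in microglia, with replicate 2 the highest in both. With the microglia cluster left out of the tissue comparison, the same 7 members were higher in bone and liver (Tfrc with an edgeR adjusted p of 0.0488).

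In bone and liver 96.5% and 97.4% of the positive macrophages lay in cluster 27, led by Cd5l, Vcam1, Clec4f and Vsig4. Within it Slc40a1 was 3595 and 2085 CPM in bone and 3549, 2194 and 2574 CPM in liver. Liver replicate 1 was the exception to the high share, with 73 of its 91 macrophages in cluster 27 and 15 in the alveolar cluster 26, which held 167524 of their 424778 UMIs. In cluster 27 alone that sample had 3549 CPM of Slc40a1, 2152 of Hmox1, 1352 of Cd163 and 222 of Spic, against 1914, 1194, 718 and 120.1 CPM over all its macrophages. The 12 positive lung cells of replicate 2 that fell in cluster 27 had Slc40a1 at 965 CPM and Hmox1 at 1141 CPM, whereas the alveolar cluster 26, with 97.3% of the lung macrophages, had Slc40a1 at 3.31, 15.1, 4.59 and 2.24 CPM. The few biotin negative macrophages gave these values: Slc40a1 was 879 and 1964 CPM in 24 and 21 liver cells, 150.3, 102 and 34.5 CPM in 26, 17 and 36 brain cells, 169.7 CPM in 10 bone cells and 407 CPM in 27 lung cells. That last value lay far above the positive lung samples. It rests on 1 sample. That sample and the 12 positive lung cells of cluster 27 are of replicate 2, where Clec4f was counted outside the liver. Whether cells or RNA of liver are part of these lung values was not tested. The negative lung macrophages were also spread differently over the clusters, with 13.9% in cluster 27 and 69.4% in cluster 26 against 0.359% and 97.3% of the positive ones.

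**Figure D3:**
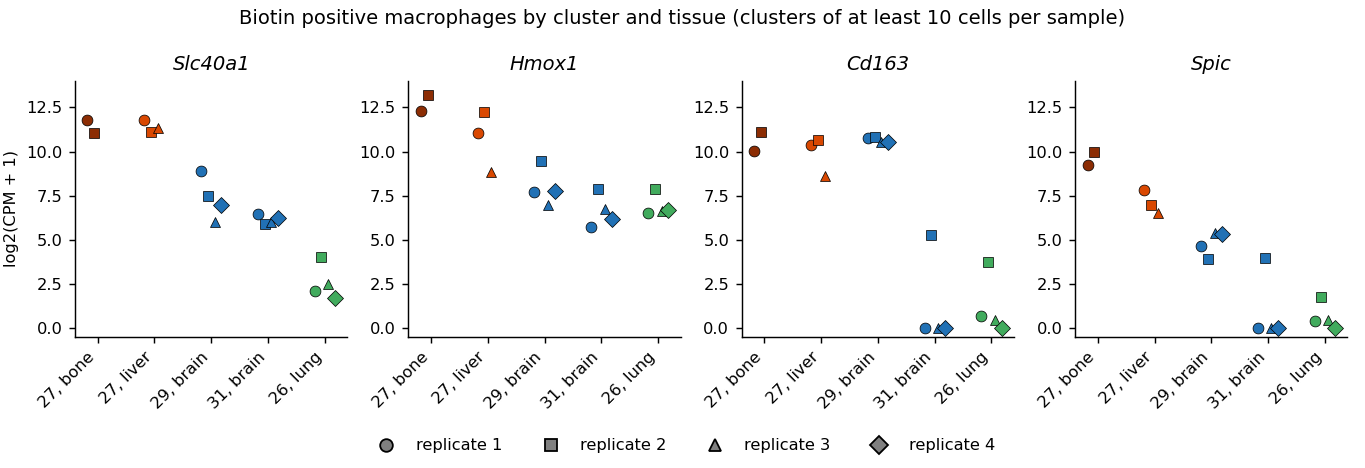
Levels of Slc40a1, Hmox1, Cd163 and Spic in the main macrophage clusters of the biotin positive sort, as log2(CPM + 1), with 1 point per sample (shape by replicate number). Cd163 in brain cluster 29 lies within the range of cluster 27 in bone and liver and is lower in every sample of brain cluster 31 and lung cluster 26, where replicate 2 is the highest (37.3 and 12.3 CPM), while Slc40a1 and Spic are highest in cluster 27.

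A further cluster with phagocyte genes kept no name. Its leading genes included Pf4, Spp1 and Ccl2 (cluster 17). Hmox1 stood there at 1999 and 2999 CPM in bone, at 558, 2039 and 718 CPM in liver, at 154, 144 and 127 CPM in brain and at 1518, 2279, 1178 and 1122 CPM in lung. Fth1 ranged from 7856 to 35932 CPM over the same 12 positive samples, while Slc40a1 was at most 159 CPM and Spic at most 47.0 CPM. Hmox1 was thus high in lung cells outside the alveolar clusters, without Slc40a1 or Spic at the level that cluster 27 had in bone and liver.

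Among 51 other genes of iron handling, 35 were tested in the tissue comparison, 8 were higher in bone and liver and 1 was lower, beside 10.1% and 6.69% of all genes tested, with a median difference of 0.25. The 4 largest differences were those of Nr1h3 (4.64, SE 0.38), which encodes liver X receptor alpha, Steap3 (2.40, SE 0.42), a ferrireductase of endosomes, Hfe (1.93, SE 0.32), the haemochromatosis protein, and Slc48a1 (1.76, SE 0.35), which exports haem from the phagolysosome, with edgeR adjusted p of 2.44e-06, 0.00169, 0.00107 and 0.00378. The lower gene was Bach1 (-0.59, SE 0.15, edgeR adjusted p = 0.0156), a haem-sensing repressor of Hmox1. By list, 4 of 12 tested genes of haem and haemoglobin handling, 2 of 12 of iron transport and 2 of 11 of storage and sensing were higher.

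Over the 13 samples of this fit the genes most like Slc40a1 were Epsti1 (r = 0.987), Fmnl2 (r = 0.985) and Itga9 (r = 0.98), by Pearson correlation of log2 CPM. For Spic they were Fmnl2 (r = 0.968), Abcg3 (r = 0.963) and Gfra2 (r = 0.96), and for Hmox1 they were Epn1 (r = 0.93), Slc43a2 (r = 0.926) and Psmc1 (r = 0.924). These values describe samples that fall into 4 tissues and share replicate numbers and depth, and carry no p.

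The biotin sort was compared next within each tissue, in macrophages and monocytes together (mononuclear phagocytes), since negative samples held few macrophages. Positive phagocytes had more Slc40a1, Cd163 and Blvrb in brain, more Slc40a1, Blvrb and Spic in liver and more Spic in bone. In lung they had more Fth1 and Tfrc and less Slc11a1. The mix of cells differed with the sort: macrophages made up 86.3% to 98.1% of positive and 0.976% to 12.7% of negative phagocytes in brain, 67.3% to 99.0% and 0.285% to 6.41% in lung, 27.6% to 98.7% and 0% to 6.08% in liver, and 13.5% to 88.0% and 0.116% to 2.91% in bone. A member higher in positive phagocytes is therefore one higher in a mix with more macrophages, and the sort and the mix cannot be told apart in these sums. The same holds for fewer cells of a type and less RNA per cell.

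In brain Slc40a1 was 301, 167, 54.1 and 80.2 CPM in positive and 7.89, 27.5, 9.16 and 11 CPM in negative phagocytes. The groups did not overlap, and the difference was 3.21 (SE 0.58, edgeR adjusted p = 0.00197). Cd163 was 1036, 1632, 144 and 189.7 CPM against 6.72, 51.8, 15.8 and 27.2 CPM, again apart, with a difference of 4.66 (SE 0.93, edgeR adjusted p = 0.00334). Blvrb was 384, 329.9, 94.2 and 156 CPM against 42.4, 72.4, 52.4 and 45.5 CPM, also apart, and differed by 1.91 (SE 0.41, edgeR adjusted p = 0.00474). These 3 members were called in all 17 alternatives. The 3 higher of 8 tested stand beside 41.2% of all genes, 20.5% higher and 20.7% lower, and with the replicate number as a block Slc11a1 was higher too (edgeR adjusted p = 0.0388, and 0.313 without it).

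In liver Slc40a1 was 393, 2152 and 1584 CPM in 3 positive and 4.33, 52.7, 49.2 and 7.75 CPM in 4 negative samples. The groups were apart, with a difference of 5.24 (SE 0.92, edgeR adjusted p = 0.0322). Blvrb was 104, 286 and 219 CPM against 43.9, 59.0, 60.3 and 46.5 CPM, also apart, with a difference of 1.66 (SE 0.31, edgeR adjusted p = 0.0337). Spic was 25.3, 120.2 and 54.8 CPM against 0.413, 9.94, 2.02 and 0 CPM, apart as well, with a difference of 4.11 (SE 0.92, edgeR adjusted p = 0.0454). The 3 members of 9 stand beside 3.41% of all genes, 3.33% higher and 0.0819% lower. With the replicate number as a block 6 were called, when Hmox1, Cd163 and Slc11a1 joined them (4.83% of genes), and 6 were called without positive replicate 1 (27.9% of genes). All 3 calls were lost without any 1 of positive replicates 2 and 3 and negative replicates 1, 3 and 4, and with coarser clusters (resolution 0.5, chosen after the data had been seen). Blvrb was also lost without negative replicate 2, and Slc40a1 and Blvrb without replicate 2 of both groups.

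In bone Spic was 56.4, 599.9, 31.9 and 5.33 CPM in positive and 1.04, 2.98, 1.72 and 1.51 CPM in negative phagocytes. The 5.33 CPM of positive replicate 4 is 1 UMI, where 3 counts would be 16.0 CPM. That sample is thus not shown to be apart from the negative ones. The difference of Spic was 6.51 (SE 1.08, edgeR adjusted p = 0.0443), the 1 member of 9 called beside 0.327% of all genes, 0.327% higher and 0.00% lower. The call was lost without any 1 of the 4 negative samples. Slc40a1 was 314, 1271, 45.6 and 42.7 CPM against 2.60, 12.7, 11.6 and 8.53 CPM, with replicates 3 and 4 of the positive samples far below replicates 1 and 2. It had a difference of 5.43 (SE 0.99, edgeR adjusted p = 0.051), and 12 of 17 alternatives called it, among them those without any 1 of the 4 positive samples. Hmox1 was 495, 5793, 205 and 123 CPM against 72.4, 97.8, 76.3 and 73.8 CPM, which do not overlap (4.12, SE 1.01, edgeR adjusted p = 0.11), and was called without positive replicate 4. Cd163 was 94.7, 1387, 13.7 and 48.0 CPM against 0.909, 18.1, 0.862 and 0 CPM, which overlap (5.96, SE 1.43, edgeR adjusted p = 0.105). With the replicate number as a block 91 genes were called in place of 29, and 3 members, Slc40a1, Cd163 and Spic. With coarser clusters no member was called, and without replicate 2 of both groups 4 were, Slc40a1, Hmox1, Cd163 and Spic. The share of all genes called without replicate 2 is not given here, so that count has no background beside it.

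In lung the transporter Slc11a1 was lower in positive phagocytes. It was 16.1, 14.2, 31.4 and 34.2 CPM in positive and 116, 124, 92.8 and 74.5 CPM in negative phagocytes, which do not overlap, a difference of -2.5 (SE 0.31, edgeR adjusted p = 0.000178). Fth1 was 15815, 20747, 14174 and 13606 CPM against 10331, 10623, 8380.0 and 5899 CPM (0.55, SE 0.20, edgeR adjusted p = 0.045) and Tfrc 9.99, 15.8, 12.7 and 10.1 CPM against 1.07, 9.24, 4.50 and 2.44 CPM (1.18, SE 0.43, edgeR adjusted p = 0.0446). The groups were apart for both genes. The 3 members of 7 tested stand beside 48.1% of all genes, 25.2% higher and 22.9% lower. The Fth1 call was lost without any 1 positive sample, without negative replicate 3 or 4, without replicate 2 of both groups or without cells of high doublet scores. The Tfrc call was lost without any 1 positive sample or without negative replicate 1, 3 or 4. Slc40a1 (-0.69, SE 0.80) and Hmox1 (-0.37, SE 0.50) had edgeR adjusted p of 0.503 and 0.571.

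The biotin difference itself differed between the tissues. Averaged over bone and liver it exceeded that over brain and lung for Slc40a1 by 4.02 (SE 0.93, edgeR adjusted p = 0.00974), for Hmox1 by 3.44 (SE 0.90, edgeR adjusted p = 0.0211), for Slc11a1 by 1.98 (SE 0.42, edgeR adjusted p = 0.00419) and for Spic by 4.91 (SE 1.25, edgeR adjusted p = 0.0177). These 4 of 9 stand beside 6.41% of all genes, 4.38% higher and 2.03% lower. With the replicate number as a block 1308 genes were called in place of 724, and Cd163 (3.66, SE 1.35, edgeR adjusted p = 0.103 without the block) made it 5 members. Without replicate 2 of every group 4 members were called, Cd163 taking the place of Slc40a1, and the share of all genes in that fit is not given here. The Hmox1 call was lost without bone or liver positive replicate 2, the Spic call without brain negative replicate 2 and the Slc40a1 call with finer clusters, while Cd163 was called without bone or liver negative replicate 2. With coarser clusters Slc40a1 was the 1 member called (3.90, edgeR adjusted p = 0.0417).

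**Figure D4:**
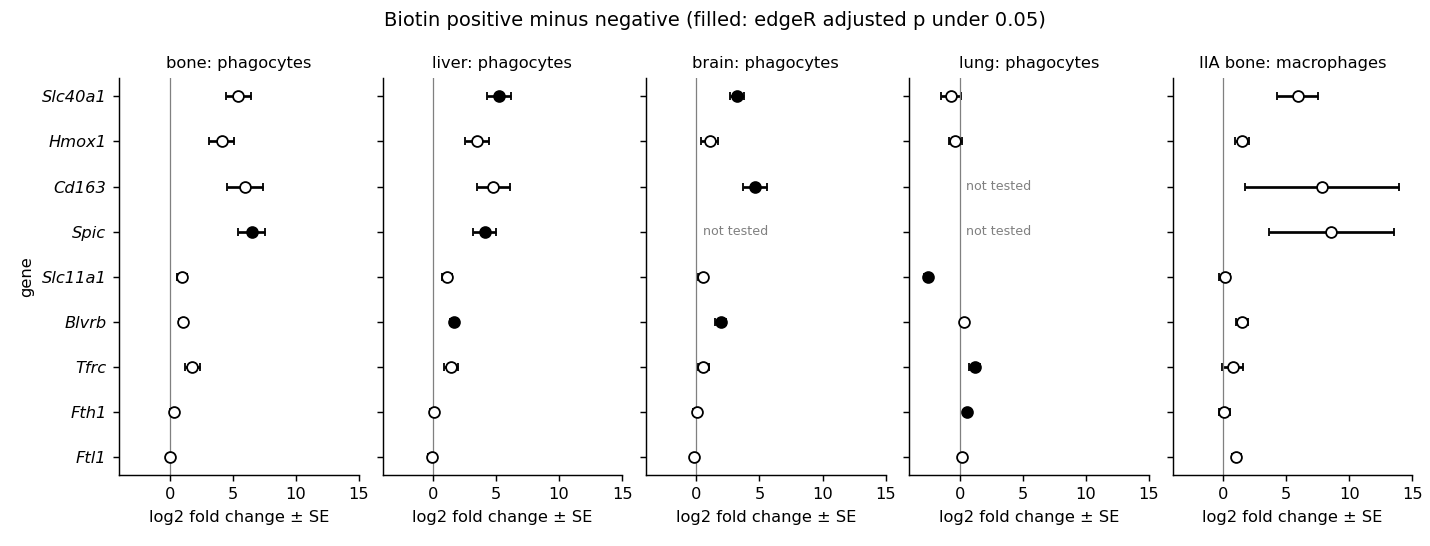
Log2 fold change of biotin positive over negative phagocytes in the 4 tissues, and of macrophages in the IIA bone samples, with its standard error as a bar. Filled circles passed an edgeR adjusted p under 0.05, and no circle of the IIA panel is filled. Slc40a1 is above 0 in all panels but lung, and Slc11a1 is below 0 in lung. The IIA values of Spic and Cd163, whose negative samples are at 0, depend on the count that the fit adds and are no bound.

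Monocytes allowed both sorts to be compared within 1 class. In it Cd163, which was highest in macrophage-like clusters, reached 240 CPM in positive and 16.5 CPM in negative samples. Its medians were 0 and 1.71 CPM. The part of macrophage cells or RNA in this class was not tested. Slc40a1 was higher in positive monocytes, at a median of 18.4 CPM (0 to 75.3 over 14 samples) against 7.52 CPM (1.53 to 20.5 over 16 samples), with overlapping ranges. The difference was 1.54 (SE 0.38, edgeR adjusted p = 0.0398), 1 of the 9 members beside 1.03% of all genes, 0.317% higher and 0.716% lower. The call was lost in 20 of the 39 alternatives, with an edgeR or DESeq2 adjusted p between 0.00258 and 0.919. Among them were DESeq2, finer and coarser clusters, at least 30 cells per sample, and the fits without any 1 of bone replicate 1, brain replicate 2, liver replicate 3 and lung replicates 1 to 4 of the positive sort. The same held without any 1 of bone replicates 1 and 4, brain replicates 1, 3 and 4, liver replicates 1 and 3 and lung replicates 3 and 4 of the negative sort. Hmox1 did not pass in monocytes, at a median of 103 against 85.2 CPM (-0.040, SE 0.22, edgeR adjusted p = 1.00). Between tissues no member passed in negative monocytes, nor any of 9682 genes (0.00%, with 1011 at an unadjusted p under 0.05, and 85 called by DESeq2). Fth1 had -0.64 in bone and liver against brain and lung (SE 0.18, edgeR adjusted p = 0.229), and was called with the replicate number as a block.

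Over all kept cells, which need no cell type names, Blvrb in lung was the member called. It was 62.6 to 114 CPM in positive and 32.6 to 55.9 CPM in negative lung samples, which do not overlap, a difference of 0.77 (SE 0.23, edgeR adjusted p = 0.0438) beside 18.3% of all genes, 11.5% higher and 6.80% lower. The mix differed with the sort here too: the 4 positive lung samples held 1396, 1946, 458 and 101 macrophages among 7342 cells, and the 1 negative lung sample with at least 10 macrophages held 27, among 10584 negative lung cells in all. Its part in the call was not tested. With the replicate number as a block 3 members were called there, Hmox1 and Ftl1 being the others, and the share of all genes in that fit is not given here. The Blvrb call was lost without lung negative replicate 1, 2 or 3, without lung positive replicate 1, 2 or 4 and without replicate 2 of both groups. In bone and liver no member and no gene passed in edgeR (0.00% and 0.00%, with 983 and 1571 genes at an unadjusted p under 0.05, and 53 and 431 called by DESeq2). In brain no member passed beside 3.06% of all genes, 2.88% higher and 0.181% lower, and Cd163 (4.72, SE 1.23, edgeR adjusted p = 0.0743) did with the replicate number as a block. Among the liver positive samples replicate 2 was the highest, at 1856 CPM of Slc40a1 and 4151 CPM of Hmox1, with 80.6% of its cells macrophages. Macrophages gave 79.2% to 99.2% of the Cd163 UMIs of positive liver and 81.8% to 98.1% of positive brain samples, and 0% to 37.2% in lung.

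The IIA bone samples give the sort comparison after another injection. Their macrophages formed a single cluster whose leading genes included Pf4, Mrc1 and Hmox1, with 802 positive and 95 negative cells, and 2 of the 6 negative samples (injections 2 and 3) held at least 10 of them. Slc40a1, Hmox1, Blvrb and Ftl1 were above both negative samples in all 6 positive ones, and no member passed the test. Of the 6040 genes tested 0.215% passed in edgeR (0.00% higher and 0.215% lower), and at an unadjusted p under 0.05 there were 852, while DESeq2 called 107 with Slc40a1 and Ftl1 among them. The members' median was 1.49 on the log2 scale, beside 0.066 over all genes tested, and 1.03 over the 7 with a UMI in the negative samples. On simulated counts this fit recovered 117 of 189 changed genes.

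The iron exporter Slc40a1 was 5.60 and 0 CPM in negative macrophages and 65.2, 181, 133, 336, 112 and 812 CPM in positive macrophages of injections 1 to 6, a difference of 5.91 (SE 1.63, edgeR adjusted p = 0.159). It rests on 1 UMI in the negative macrophages: summed over samples the ratio of positive to negative was 39.5, with a 95% exact interval of 7.07 to 1562 for counting error alone. Hmox1 was 778 and 343 CPM against 847, 2774, 1995, 906, 2081 and 1033 CPM (1.5, SE 0.57, edgeR adjusted p = 0.279). Blvrb was 123 and 54.9 CPM against 133, 394, 200.5, 388, 248 and 317 CPM (1.49, SE 0.49, edgeR adjusted p = 0.212). The groups of these 3 members did not overlap. Spic was at 0 in both negative samples and at 33.3, 6.69, 20.8, 168, 46.6 and 273 CPM in the positive ones. Cd163 was at 0 in both negative samples and in positive sample 1, and reached 220.0 CPM in the other positive ones. In the negative samples 3 counts would be 16.8 and 41.2 CPM, and the Spic levels of positive samples 1, 2 and 3 lie below the higher of these, so whether the groups are apart is not shown at this depth and no fold is given for these 2 members.

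Among the storage genes Ftl1 was 3257 and 2293 CPM in negative and 4637, 8433, 5579, 5345, 5545 and 4761 CPM in positive macrophages, which do not overlap (1.03, SE 0.33, edgeR adjusted p = 0.21). Fth1 was 15038 and 10653 CPM against 11609.7, 23319, 15671, 6678, 13327 and 10637 CPM (0.081, SE 0.43, edgeR adjusted p = 0.968). Within injections 2 and 3, which held both sorts, the positive sample was the higher in Fth1. With the injection number as a block Fth1 was called. Tfrc (0.74, SE 0.84) and Slc11a1 (0.10, SE 0.46) had edgeR adjusted p of 0.743 and 0.961. The positive samples of Fth1, Tfrc and Slc11a1 overlapped the negative ones. With each cell thinned to 1500 UMIs, a Slc40a1 UMI was found in 7.89% to 37.5% of positive and 0% to 2.33% of negative macrophages (0 of 16 cells in the lower one, which allows up to 20.6%), and a Hmox1 UMI in 31.1% to 67.1% and 31.2% to 37.2%. The macrophages of the 2 sorts differed in their markers as well. The macrophage list summed to 1359 and 3481 CPM in the negative samples, with Marco, Cd5l, Clec4f, Lyve1, Timd4 and Vsig4 at 0, and to 4354 to 22137 CPM in the positive ones, with Clec4f at 0. The monocyte list summed to 6109 and 6621 CPM and to 1593 to 3726 CPM, and the erythroid list to 27.5 and 6778 CPM and to 44.9 to 37142 CPM. Their part in the values was not tested.

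**Figure D5:**
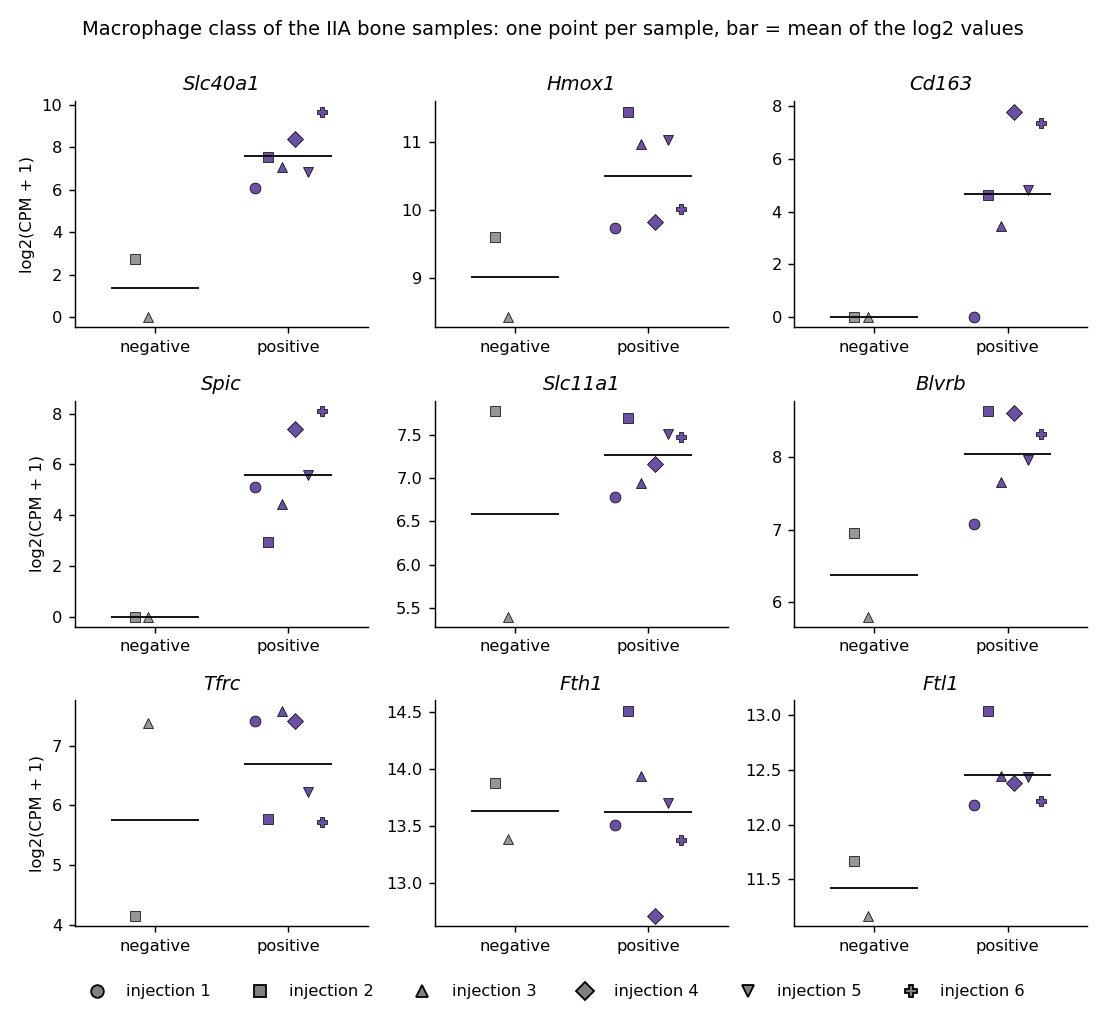
Levels of the 9 genes in macrophages of the IIA bone samples by biotin sort, as log2(CPM + 1), with 1 point per sample (shape by injection number) and a bar at the mean of the log2 values. Slc40a1, Hmox1, Blvrb and Ftl1 do not overlap between the 2 negative and 6 positive samples, Spic is at a count of 0 in both negative samples, and Cd163 is at 0 in both and in 1 positive sample. The vertical axes of Hmox1, Slc11a1, Blvrb, Tfrc, Fth1 and Ftl1 do not start at 0.

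The calls in IIA macrophages depended on how the cells were grouped. With the injection number as a block 5 members were called, Slc40a1, Hmox1, Fth1, Ftl1 and Blvrb (3.13% of genes), and with coarser clusters, which left all 12 samples, 7 of 7 tested were (24.4% of genes). Macrophages and monocytes together also left all 12 samples. There Slc40a1 was 3.34, 6.41, 2.67, 5.86, 5.42 and 8.60 CPM in negative and 57.6, 179.7, 126, 274, 79.5 and 374 CPM in positive phagocytes of injections 1 to 6, which do not overlap, a difference of 4.91 (SE 0.43, edgeR adjusted p = 1.33e-06). Hmox1 had a median of 60.6 CPM in negative (48.9 to 142) and 1044 CPM in positive phagocytes (500.4 to 2755), also apart, a difference of 4.28 (SE 0.45, edgeR adjusted p = 7.31e-06). Fth1 (2.62), Blvrb (2.60), Tfrc (2.0), Ftl1 (1.8) and Slc11a1 (1.47) were called as well, 7 of 7 tested members beside 32.1% of genes. Macrophages made up 63.8% to 98.8% of the positive and 1.16% to 14.1% of the negative phagocytes, so the sort and the mix cannot be told apart here either. In monocytes alone no member and 3 genes were called. These groupings, the block aside, were chosen after the data had been seen.

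Over all IIA cells Hmox1 was higher in positive samples by 4.02 (SE 1.01, edgeR adjusted p = 0.00576), Spic by 3.34 (SE 0.69, edgeR adjusted p = 0.00171), Fth1 by 1.72 (SE 0.64, edgeR adjusted p = 0.0394) and Tfrc by 1.08 (SE 0.23, edgeR adjusted p = 0.0022), 4 of 8 tested beside 50.2% of all genes, 27.0% higher and 23.2% lower. The sorts overlapped for each of the 4. Hmox1 was 161, 1609 and 951 CPM in positive samples 1 to 3, and 40.0, 41 and 30.8 CPM in positive samples 4 to 6, within the 17.9 to 44.3 CPM of the negative ones. Fth1 likewise was 3060.1, 14866 and 8859 CPM in positive samples 1 to 3, and 1319, 1074 and 1136 CPM in samples 4 to 6, within the negative range of 1005 to 1876 CPM. Macrophages were 66 of 423, 250 of 485 and 353 of 955 cells in positive samples 1 to 3, and 12 of 249, 91 of 2140 and 30 of 637 cells in samples 4 to 6. The part of this mix in the values was not tested. With the injection number as a block, Spic and Tfrc were called, and Hmox1 (2.34, edgeR adjusted p = 0.0527) and Fth1 (0.92, edgeR adjusted p = 0.15) were not. The Fth1 call was also lost with no filter on low counts, without any 1 negative sample and without positive sample 2 or 3. Slc40a1 was not called, at 46.3 to 76.3 CPM in negative and 51.2 to 122 CPM in positive samples (0.060, SE 0.21, edgeR adjusted p = 0.84). Among the IIA classes its median was 123 CPM in macrophages and 105 CPM in neutrophils.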

How the data were processed

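Single-cell RNA-seq was measured in 32 intracardiac samples and 12 hashtagged IIA samples of mouse. The authors deposited filtered matrices of raw UMI counts, made with Cell Ranger 6.1.2 (intracardiac) and 7.1.0 (IIA) per the file headers, and mm10 and Seurat stand in the submitters' processing notes. IIA cells were assigned to samples here by a hashtag of at least 10 counts and 3 times the next one, and the tags of the files were matched to the authors' tag list by number. Cells with at least 500 UMIs, 200 genes and at most 15% mitochondrial UMIs were kept. Each experiment was clustered with scanpy 1.11.5 (2000 variable genes without the members or other iron genes, 30 components, 15 exact neighbours in double precision, Leiden resolution 1) and named from 28 marker lists, so names are rebuilt ones, and 11.3% of intracardiac and 11.9% of IIA cells stayed unnamed. Doublets were not removed, and leaving out the 5% with the highest scores was an alternative.

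Counts were summed per sample and class (at least 10 cells) and tested with edgeR 4.0.16 (TMM, filterByExpr, quasi-likelihood test, Benjamini-Hochberg over all genes tested, threshold 0.05). The standard error is the log2 fold change divided by the root of F. DESeq2 1.42.0, other filters, finer clusters, a replicate block and left-out samples were alternatives. An earlier clustering on approximate neighbours, whose cluster bounds moved with the computing environment, gave calls of members in IIA macrophages that exact neighbours do not give. Coarser clusters (resolution 0.5) in every class-based comparison, and IIA macrophages and monocytes together, were added for that reason after the data had been seen. On simulated counts 191 of 192 changed genes were recovered in the tissue comparison of macrophages. The labels do not say whether replicates are separate animals, so p-values measure the spread between these samples. Intervals and floors (3 counts) cover counting error.

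Same-numbered intracardiac samples shared no barcode and deviated together (median correlation of deviations 0.117 against -0.0487 between numbers in the tissue comparison, and 0.495 against -0.238 over all bone cells), and the labels name no batch, so the number was used as a block in an alternative fit. In IIA, where the authors' tag list numbers injections, the medians were 0.124 in macrophages and 0.284 over all cells.

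The members and gene lists were chosen with earlier results of these data known. The text names the 9 members throughout, and of 51 other iron genes those called in the tissue comparison of macrophages, at most 4 in each direction by size. For Slc40a1, Hmox1 and Spic it names the 3 genes with the highest Pearson r.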

Additional observations from a re-analysis of the deposited data

Results flagged for a closer look

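In 37 of 180 groups of 4 to 10 samples, 1 sample stood far from the others in the level of a member, and chance gives about 1 in 20. Most were replicate 2 of the intracardiac samples. In macrophages replicate 2 was highest in brain for Hmox1 (677 CPM) and in lung for Hmox1 (241 CPM), Cd163 (12.3 CPM) and Spic (2.64 CPM), all biotin positive. In monocytes it was highest for Hmox1 in negative bone (95.9 CPM) and negative lung (272 CPM), for Cd163 in negative bone (10.6 CPM) and positive lung (6.71 CPM) and for Spic in negative liver (6.25 CPM). The 6.71 CPM rests on few cells, as 1946 of the 1965 phagocytes of that sample were macrophages.

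Over all cells, positive liver replicate 2 stood apart for Slc40a1 (1856 CPM), Hmox1 (4151 CPM), Cd163 (1364 CPM), Slc11a1 (287 CPM) and Spic (105 CPM). Positive bone replicate 2 did so for Hmox1 (1452 CPM), Cd163 (255 CPM) and Spic (112 CPM), and positive brain replicate 2 for Hmox1 (519 CPM), Cd163 (1247 CPM) and Blvrb (264 CPM). In the negative sort replicate 2 was highest for Hmox1 (237 CPM) and Cd163 (34.8 CPM) in liver and for Cd163 in bone (8.26 CPM) and lung (20.1 CPM).

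Other replicates stood apart for Fth1 in positive brain macrophages (replicate 4, lowest, 6542 CPM), Blvrb in positive lung macrophages (replicate 4, 101 CPM), Spic in positive bone monocytes (replicate 1, 11.5 CPM) and Blvrb in negative bone monocytes (replicate 1, 52.9 CPM). Over all cells they were Tfrc in negative lung (replicate 1, 17.5 CPM) and Blvrb in negative bone (replicate 1, 46.8 CPM). In the IIA samples they were Slc40a1 in macrophages of positive sample 6 (812 CPM), Ftl1 in macrophages of positive sample 2 (8433 CPM), and Ftl1 (1603 CPM) and Spic (0.650 CPM) in monocytes of negative sample 2. That Spic level is 1 UMI, below the 1.95 CPM that 3 counts would be, and cannot be told from a count of 0. Over all IIA cells the values that stood apart were Hmox1 (44.3 CPM) and Ftl1 (847 CPM) in negative sample 2 and Spic in negative sample 4 (1.58 CPM).

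By the test of the difference itself, the biotin difference of phagocytes was larger in bone and liver than in brain and lung for Slc40a1 (4.02), Hmox1 (3.44), Slc11a1 (1.98) and Spic (4.91, all log2, edgeR). Macrophages were a different share of the positive phagocytes in each tissue (medians of 24.5% in bone, 69.5% in liver, 93.1% in brain and 88.1% in lung), and the part of this was not tested. The Hmox1 call was lost without bone or liver positive replicate 2, the Spic call without brain negative replicate 2, the Slc40a1 call with finer clusters and without replicate 2 of every group, and all but that of Slc40a1 with coarser clusters.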

How the results depend on the processing

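Members called at an adjusted p under 0.05 moved as follows, with the range over single samples left out in parentheses. Genes called in all are given in the next paragraph for some of these fits. The other counts of members have no background beside them. In bone phagocytes 1 became 2 with DESeq2, without high doublet scores, without haemoglobin and mitochondrial genes and with finer clusters, 3 with the replicate block and with at least 30 cells, 4 with no low-count filter and without replicate 2, and 0 with coarser clusters (0 to 3). In liver phagocytes 3 became 5 with no filter, 6 with the block and 0 with coarser clusters (0 to 6). For the tissue difference of the sort 4 became 1 with coarser clusters (3 to 5). In negative monocytes between tissues 0 became 1 with the block. In monocytes by sort 1 became 0 with DESeq2, finer or coarser clusters and at least 30 cells (0 to 1). Over all brain cells 0 became 2 with DESeq2 and 1 with no filter, with the block and without replicate 2. Over all lung cells 1 became 3 with DESeq2 and with the block, 2 without high doublet scores and 0 without replicate 2 (0 to 2). In IIA macrophages 0 became 2 with DESeq2, 1 with no filter, 5 with the block and 7 with coarser clusters or with monocytes joined to them (0 to 0), and over all IIA cells 4 became 2 with the block (3 to 5). Single samples left out gave 5 to 7 in the tissue comparison, 3 to 3 in brain phagocytes and 1 to 3 in lung phagocytes. Of 2485 member values under the alternatives 2201 kept direction and side of the threshold, 101 lost and 77 gained a call, 106 uncalled ones changed sign and 0 called ones did. The block moved no other count of members called by more than 1.5 times. Coarser clusters, monocytes joined to or in place of macrophages and leaving out replicate 2 of every group were chosen after the data had been seen. The causes were not tested.

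Thinned to 1000 UMIs, the median share of bone macrophages was 86.2% for Hmox1, 77.7% for Slc40a1 and 44.5% for Spic, and that of liver macrophages 76.6% for Slc40a1 and 9.81% for Spic. All genes called moved by more than 1.5 times as follows. In the tissue comparison 1650 became 360 without replicate 2 (590 to 1962 with single samples left out, the lowest without positive bone replicate 2). In bone phagocytes 29 became 116 with DESeq2, 513 with no filter, 91 with the block, 110 without high doublet scores, 132 with finer and 0 with coarser clusters and 145 with at least 30 cells (0 to 145, and 0 without negative replicate 1, 2 or 3). In liver 333 became 733 with DESeq2, 886 with no filter, 44 without replicate 2 and 0 with coarser clusters (0 to 2841, the highest without positive replicate 1 and 0 without negative replicate 1, 3 or 4). For the tissue difference of the sort 724 became 1308 with the block and 420 with coarser clusters (536 to 963). In monocytes by sort 101 became 177 with DESeq2, 362 with no filter, 591 with the block, 173 without high doublet scores, 1 with finer clusters, 3 with at least 30 cells and 33 with coarser clusters (25 to 265), and between tissues 0 became 85 with DESeq2, 33 with no filter and 220 with the block. Over all cells 0 in bone became 53 with DESeq2 and 12 with the block, 0 in liver became 431 with DESeq2 and 339 in brain became 1225 with DESeq2, 517 with no filter and 762 with the block, and single samples left out gave 3 to 758 in brain and 1280 to 2381 in lung (against 2254). In IIA macrophages 13 became 107 with DESeq2, 51 with no filter, 189 with the block, 0 with at least 30 cells, 1294 with coarser clusters, 3 with monocytes in their place and 2925 with monocytes joined to them (0 to 13). Depth limits the positive bone macrophages most among the 4 tissues.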
